A study of Felis catus with 6 samples.

Results

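Ubiquitin ligases, deubiquitinases and their relatives were followed in lesions of feline chronic gingivostomatitis (FCGS), a chronic inflammation of the oral mucosa of cats, and in healthy oral mucosa of the same animals. The genes were taken by symbol (the families UBE2, UBE3, USP, UCH, OTU, TRIM, RNF, FBXO, FBXL, FBXW, KLHL, MARCH, HECT, HERC, NEDD4, CUL, ASB and SOCS) from the study's list of genes at least 2-fold different between the tissues. They were therefore chosen by the same lesion and healthy values that are described here, and the size and direction of their tissue difference are no finding. The symbols covered 29 genes among the 21529 Ensembl identifiers measured, 17 of them higher and 12 lower in lesions. The RefSeq annotation of the cat holds 388 protein-coding symbols of these families, and the others, which had no name in the list at hand or no measurement under these names, are not described. Among the families, UBE2 conjugases (32 RefSeq symbols), cullins (8), SOCS genes (7), MARCH genes (11) and FBXW genes (8) had no member found by symbol. In the list at hand 5 rows carried a date in place of a symbol. Their genes could not be assigned to a family, so the absence of MARCH genes in particular is no finding. The list at hand ended at genes 5.203-fold lower in lesions, so that genes with a stronger decrease carried no name.

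Tissue came from 3 cats (Felis catus), named Bart, Jerome and Sadie in the labels, each of which gave 1 full-thickness biopsy of inflamed mucosa and 1 of healthy mucosa beside it, so the 6 RNA libraries form 3 pairs. The healthy tissue is thus from diseased animals and not from healthy cats. The diseased cats had no teeth and no other disease, and received buprenorphine against pain but no immunosuppressive drug, and the age, sex and breed of these animals are not given. Each value is the FPKM of 1 library, a read number scaled for transcript length and library size, so that levels of different genes can be compared, and values are given in the order Bart, Jerome, Sadie throughout.

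Ubiquitin is a small protein that is attached to other proteins by a chain of enzymes. An activating enzyme (E1) passes it to a conjugating enzyme (E2), and a ligase (E3) selects the protein to be marked, often for destruction by the proteasome but also to change its location or its signaling. RING finger proteins (RNF, TRIM) bind the E2 directly, whereas F-box, KLHL and ASB proteins are the substrate adaptors of cullin ligases, and deubiquitinases (USP, OTU) take ubiquitin off again. In skeletal muscle, ligases of this kind break down and renew the contractile proteins, and in immune cells they control antiviral defense and NF-kappa B signaling. No sequences of these genes were at hand, so none are shown.

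Of the 29 genes, 28 reached at least 1 FPKM in at least 3 libraries and were tested with limma, together with all 13327 identifiers that did so. KLHL31 reached it in 2 libraries and was not tested. FBXL22 passed through its lesion values alone and OTUD7A through its healthy values alone, so both had to differ. Among the 28, 4 were higher past limma at a Benjamini-Hochberg adjusted p under 0.05 (TRIM52, KLHL30, USP35 and RNF130), against 5.31% of all identifiers. Another 4 were lower (USP2, USP5, USP54 and RNF169), against 6.61%. With the cat as a block, 6 were higher and 8 lower, against 12.2% and 11.1% of all identifiers. The block added HERC5 and KLHL5 to the higher genes, and RNF149, USP6NL, FBXO45 and RNF208 to the lower ones. Since membership required a 2-fold difference of the means (16.9% of all identifiers were at least that much higher and 12.3% lower), these counts cannot be set against the background. When the pair of Jerome or that of Sadie was left out, none of the 28 was past limma (10 and 8 at an unadjusted p under 0.05). In both cases 0 of the 13327 identifiers were past it, so the loss is not particular to these genes.

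**Figure D1:**
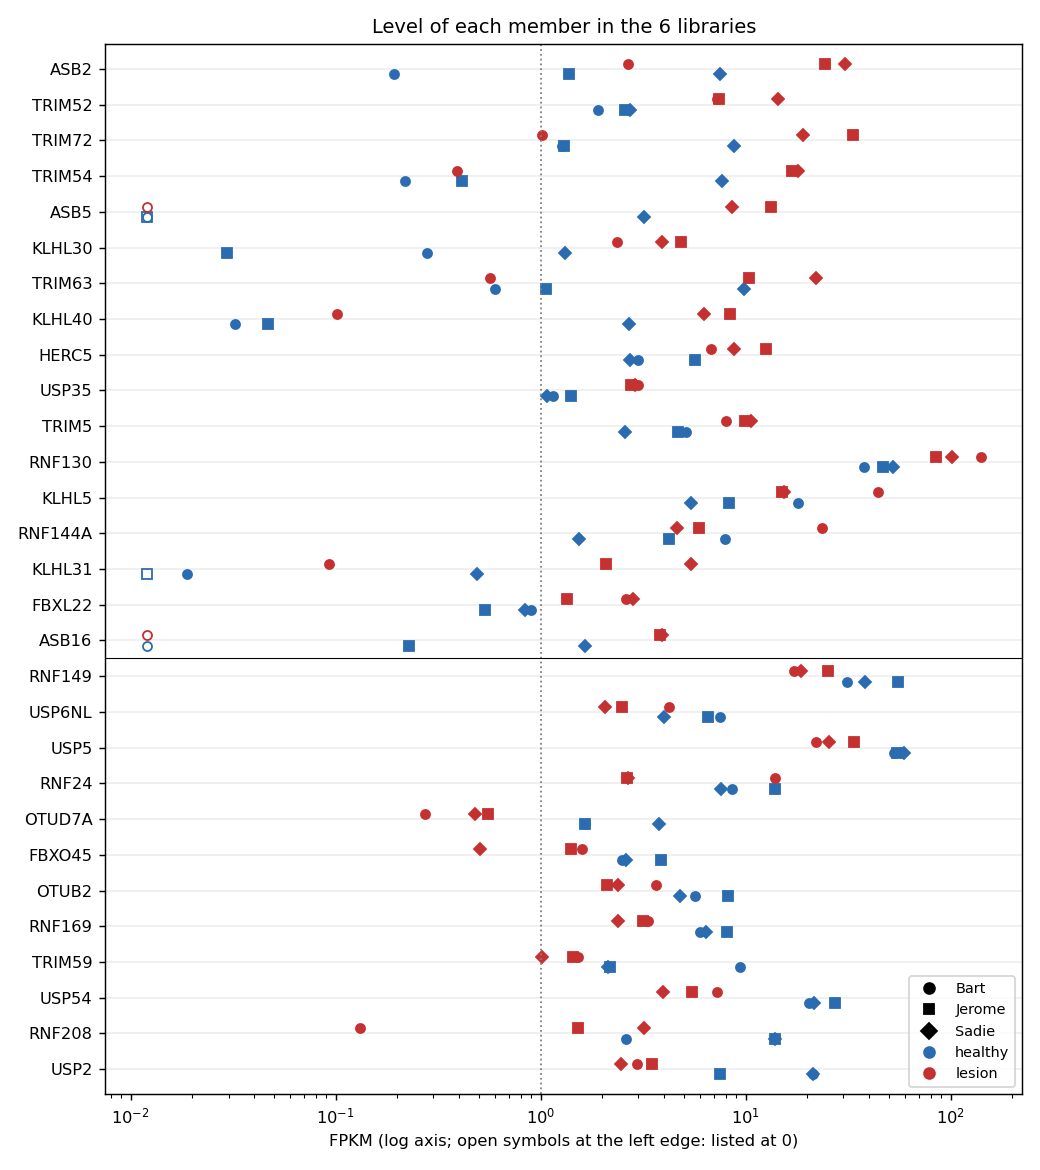
FPKM on a logarithmic axis (horizontal) of the 29 genes (vertical, from the most raised to the most lowered in lesions), with 1 symbol per library, the shape giving the cat and the color the tissue. Open symbols at the left edge mark values listed at 0, the dotted line is 1 FPKM, and the black line parts the 17 genes higher in lesions from the 12 lower ones. In the upper part many genes spread widely within a color, whereas in the lower part most red symbols lie to the left of all blue ones.

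The direction was the same in every cat for 10 of the 17 higher genes and for 11 of the 12 lower ones, on the scale with values under 1 FPKM raised to 1 (28.6% and 34.6% of all tested identifiers were higher or lower in every cat). Lesion and healthy values did not overlap for 7 of the tested higher genes and 9 of the lower ones, against 16.7% and 21.9% of all identifiers. FBXL22 and OTUD7A are counted in both respects, and the filter left them no other outcome. A difference of at least 2-fold in every cat was found for ASB2, TRIM52, KLHL30 and HERC5 among the higher genes and for USP2, USP54 and RNF208 among the lower ones, against 8.81% and 6.81%. All genes were chosen for a 2-fold difference of the means, so none of these counts can be set against the share beside it. Just inside the 2-fold limit lay RNF149, 2.01-fold lower in lesions, and ASB16, 2.09-fold higher. Genes just outside it carry no name. All 7 genes of the higher side that were not higher in every cat belonged to the muscle group described next.

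Ligases of striated muscle were the largest functional group, with 10 genes, all on the higher side. They comprise the RING ligases TRIM63 and TRIM54 (MuRF1 and MuRF3, which act on the sarcomere) and TRIM72 (mitsugumin 53, of muscle membrane repair), the adaptors ASB2 (of filamins), ASB5 and ASB16, the kelch proteins KLHL40 (a stabilizer of thin filaments), KLHL31 and KLHL30, and the F-box protein FBXL22. Their median log2 difference was 1.59 and that of all identifiers tested -0.07, a contrast that the 2-fold rule fixes, and 1 of the 9 tested, KLHL30, was past limma. They also varied between cats within a tissue. This spread is not independent of the selection, since TRIM54, ASB5, KLHL40 and ASB16 passed the filter through 3 libraries from both tissues, which gives them a range in each, and is given as a description. In lesions the median range over the 3 cats was 3.52 on the log2 scale for the 9 tested muscle ligases, 0.72 for the other 19 tested genes and 0.73 for all identifiers. In healthy mucosa the same medians were 1.67, 0.89 and 0.68.

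TRIM63 (ENSFCAG00000012801), the muscle atrophy ligase, measured 0.565, 10.3 and 22.0 FPKM in lesions and 0.598, 1.06 and 9.81 FPKM in healthy mucosa. TRIM54 (ENSFCAG00000015147) measured 0.392, 16.9 and 18.0 FPKM in lesions and 0.218, 0.415 and 7.66 FPKM in healthy mucosa. Both genes were high in the lesions of Jerome and Sadie and in the healthy mucosa of Sadie, so lesions and healthy tissue overlapped. TRIM72 (ENSFCAG00000006398) was high in the same 3 libraries, with 1.02, 33.4 and 19.1 FPKM in lesions and 1.27, 1.29 and 8.76 FPKM in healthy mucosa. In Bart the lesion lay below the healthy biopsy for TRIM72, the only such case among the 17 higher genes with values under 1 FPKM raised to 1. ASB5 (ENSFCAG00000002494) was listed at 0 in both libraries of Bart and in the healthy library of Jerome, and the lesions of Jerome and Sadie held 13.2 and 8.58 FPKM, the healthy biopsy of Sadie 3.19 FPKM. KLHL40 (ENSFCAG00000008883) reached 8.35 and 6.28 FPKM in the same lesions and 2.69 FPKM in the same healthy biopsy, against at most 0.102 FPKM elsewhere. ASB16 (ENSFCAG00000008024) reached 3.80, 3.93 and 1.64 FPKM in these 3 libraries and at most 0.227 FPKM in the others. KLHL31 (ENSFCAG00000014353) was weak, with lesion values of 2.10 FPKM (Jerome) and 5.44 FPKM (Sadie) and at most 0.491 FPKM in the other 4 libraries.

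Markers of skeletal muscle were high in the same 3 libraries. Of 37 markers of skeletal muscle, 30 had a name, and in all 30 the lesions of Jerome and Sadie and the healthy mucosa of Sadie were the 3 highest libraries. These 3 are called the libraries with muscle below, by their RNA alone. Their summed level was 208, 7775 and 7065 FPKM in lesions and 44.6, 61.7 and 3425 FPKM in healthy mucosa. CKM, the creatine kinase of muscle, stood at 0.937 FPKM (lesion) and 0.528 FPKM (healthy) in Bart. Other markers were clearly higher in this lesion, among them TPM2 (149 FPKM against 23.1 FPKM healthy) and DES (15.2 against 0.646). The same held for ENO3 (15.8 against 7.51), PYGM (9.93 against 2.21), LDB3 (5.12 against 0.684) and MYBPC2 (2.84 against 1.19). TNNT1 (0.827 against 1.40), ATP2A1 (0.869 against 1.17) and TCAP (2.34 against 2.38) were lower there. MYOG was listed at 0 in both libraries of Bart and in the healthy library of Jerome, and SMPX in the lesion of Bart. The muscle markers, like the ligases, were all higher in lesions by their means (median log2 difference 2.66), but limma called 0 of 30 (2 had an unadjusted p under 0.05, and the block for cat called 1). A gene of this list or of the lists below had a name only through the study's list of genes at least 2-fold different. Each named gene thus had to differ by its means, so the sizes and limma counts of these lists are only a description. Of the 29 genes, 8 also had their 3 highest values in these 3 libraries, against 6.33% of all tested identifiers, namely ASB2, ASB5, ASB16, TRIM54, TRIM63, TRIM72, KLHL31 and KLHL40. TRIM54, ASB5, KLHL40 and ASB16 passed the filter only through these libraries, which fixed their place, and KLHL31 was not tested. All 8 were also chosen as higher in lesions, so the count cannot be set against that share. In bulk tissue, more muscle cells in a biopsy and more RNA per muscle cell cannot be told apart.

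**Figure D2:**
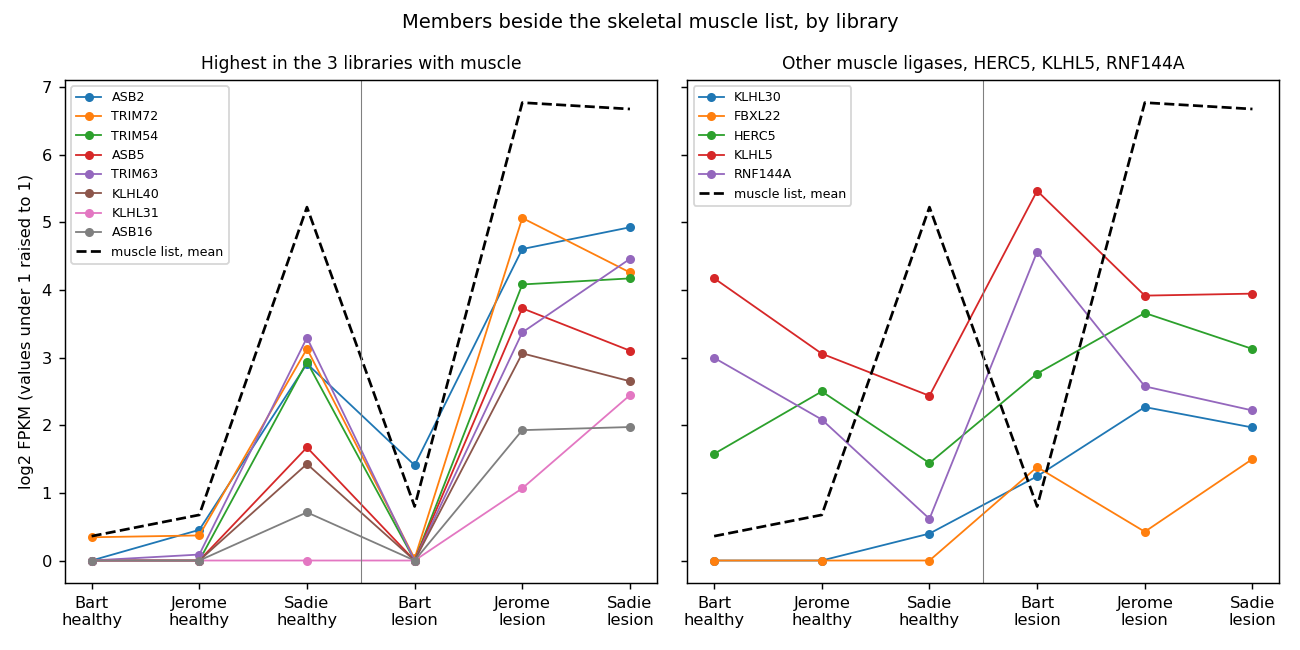
Log2 FPKM, with values under 1 raised to 1 (vertical axis), in each of the 6 libraries (horizontal axis, healthy mucosa left of the grey line), with the mean of the 30 named skeletal muscle markers as a dashed line. Lines only join the symbols of a gene. In the left panel 8 muscle ligases are high where the dashed line is high. In the right panel KLHL30 and FBXL22 are also raised in the lesion of Bart, where the dashed line is low, and KLHL5 and RNF144A are highest there.

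Within each tissue the deviations of TRIM54, ASB2, TRIM72, TRIM63, KLHL40, ASB5 and ASB16 from the tissue mean followed those of the muscle list at r = 0.95 to 1.00 (Pearson, over 6 libraries that share 2 tissue means, a description). KLHL31, of which 2 values lay above the floor of 1 FPKM, followed it at r = 0.64. In Bart, whose libraries both held little muscle RNA, TRIM54, TRIM63, ASB5, ASB16, KLHL40 and KLHL31 were under 1 FPKM in both biopsies, so the floor fixes their log2 difference at 0 and says nothing of a change, and TRIM72 differed by -0.31. In Sadie, whose biopsies both held muscle RNA, the muscle list was higher in the lesion by a median of 1.41 (range 0.54 to 3.03 over the 30 markers), and the 10 ligases by 1.13 (TRIM72) to 2.44 (KLHL31), inside the range of the markers on the scale with values under 1 FPKM raised to 1. The healthy values of KLHL31 and FBXL22 in Sadie lay under that floor, which understates their differences. Without the floor KLHL31 would lie above the range of the markers. The 7 higher genes outside the muscle group differed in Sadie by 0.96 (RNF130) to 2.40 (TRIM52), also inside that range. Lying inside it is therefore not particular to the muscle ligases. With the mean of the muscle list as a covariate, the tissue difference in limma was -0.05 ± 0.39 for TRIM72, -0.30 ± 0.40 for TRIM63 and 0.33 ± 0.33 for KLHL40 (± standard error, n = 6 libraries), where the model without it had given 1.84, 1.48 and 1.43. TRIM54 came to a log2 difference of -0.0046 from 1.77, ASB5 to 0.41 from 1.72 and ASB16 to 0.37 from 1.06. Over the 6 libraries these genes followed the muscle list at r = 0.95 to 1.00, and its markers were named through the same tissue difference. A drop towards 0 was thus fixed by this likeness. The part of muscle in these genes was not tested.

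ASB2, KLHL30 and FBXL22 were the muscle ligases that were higher in the lesion of every cat, Bart included. Some muscle markers, such as DES and TPM2, were also higher in the lesion of Bart, and a link to these ligases was not tested. ASB2 (ENSFCAG00000010227), which occurs in muscle and in blood cells, measured 2.65, 24.3 and 30.4 FPKM in lesions and 0.193, 1.37 and 7.51 FPKM in healthy mucosa, and shared its 3 highest libraries with the muscle list. With the muscle covariate its log2 difference was 1.01 ± 0.25 (standard error from limma, n = 6 libraries) in place of 2.52, and it was then past the test. KLHL30 (ENSFCAG00000001843) measured 2.37, 4.82 and 3.91 FPKM in lesions and 0.278, 0.0294 and 1.32 FPKM in healthy mucosa. Its lesions all lay above its healthy biopsies, its deviations within a tissue followed the muscle list at r = 0.94, and the covariate left a difference of 1.37 of 1.69. FBXL22 (ENSFCAG00000008984), a ligase of the sarcomere in heart muscle, measured 2.61, 1.34 and 2.83 FPKM in lesions and 0.897, 0.535 and 0.837 FPKM in healthy mucosa. Among the lesions it was lowest in that of Jerome, where the muscle list was highest, and its deviations within a tissue ran against that list (r = -0.33).

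The interferon-related ligases HERC5 and TRIM5 were both higher in all lesions than in any healthy biopsy, but neither was past limma with tissue alone. HERC5 (ENSFCAG00000006163), which attaches the ubiquitin-like protein ISG15 during antiviral defense, measured 6.79, 12.6 and 8.74 FPKM in lesions and 2.98, 5.65 and 2.71 FPKM in healthy mucosa, and it was past limma with the cat as a block. In both tissues it was highest in Jerome. TRIM5 (ENSFCAG00000010735), known in primates as a restriction factor of retroviruses, a role not to be assumed for the cat gene, measured 8.04, 9.96 and 10.6 FPKM in lesions and 5.09, 4.70 and 2.57 FPKM in healthy mucosa. How the authors' counting split reads between these genes and their close paralogs is not given. Of 33 genes of the interferon response, 6 had a name, all higher by their means (median log2 difference 2.25) and 2 past limma, and they summed to 2805, 4940 and 4442 FPKM in lesions and 664, 1481 and 480 FPKM in healthy mucosa. The mean of these 6 stood in the same order of cats as HERC5 within each tissue, Jerome, Sadie, Bart in lesions and Jerome, Bart, Sadie in healthy mucosa, and the deviations correlated at r = 0.97 for HERC5 and r = 0.71 for TRIM5 (Pearson, over 6 libraries that share 2 tissue means). TRIM5 had another order of cats than the 6 in both tissues. RNF149, which was lower in lesions, followed the 6 at r = 0.81, and USP35 did so at r = 0.61. A correlation like that of TRIM5 is therefore not particular to the interferon-related ligases. The part of interferon in HERC5 or TRIM5 was not tested.

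TRIM52, RNF130, KLHL5 and RNF144A were the other ligases on the higher side. TRIM52 (ENSFCAG00000003041), a RING finger protein with little known function, measured 7.24, 7.41 and 14.4 FPKM in lesions against 1.91, 2.58 and 2.71 FPKM in healthy mucosa, without overlap. RNF130 (ENSFCAG00000014711, also called goliath), a membrane-bound RING ligase, was the most abundant of all 29 genes in every lesion, with 140, 85.0 and 102 FPKM against 37.9, 46.6 and 52.5 FPKM in healthy mucosa. Both were past limma. The excess of RNF130 was largest in Bart, a log2 difference of 1.89 against 0.87 in Jerome and 0.96 in Sadie.

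KLHL5 and RNF144A set the cat Bart apart in both tissues. KLHL5 (ENSFCAG00000003534), a kelch protein, measured 44.2, 15.1 and 15.4 FPKM in lesions and 18.0, 8.32 and 5.41 FPKM in healthy mucosa, so that the healthy biopsy of Bart exceeded the lesions of the other cats. RNF144A (ENSFCAG00000000709), a ligase of the RING-between-RING type that acts on the DNA repair kinase DNA-PK, measured 23.6, 5.96 and 4.65 FPKM in lesions and 7.98, 4.24 and 1.53 FPKM in healthy mucosa. Each was nonetheless higher in the lesion than in the healthy biopsy of all 3 cats. Their deviations within a tissue followed the 6 endothelial markers (r = 1.00 and 0.97, over 6 libraries that share 2 tissue means, a description). They ran against the muscle list (r = -0.91 and -0.97) and the leukocyte list described below (r = -0.81 and -0.67). Both of these lists ran against the endothelial markers (r = -0.90 and -0.83), so the correlations are not independent of each other. The endothelial markers, all 6 with a name, summed to 1859, 846 and 770 FPKM in lesions and 403, 229 and 169 FPKM in healthy mucosa, and 3 were past limma. With the muscle covariate the log2 differences were 1.91 for KLHL5 and 2.25 for RNF144A, in place of 1.22 for each, and both were past the test. The part of these cell types in KLHL5 and RNF144A was not tested.

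Of the 6 deubiquitinases 5 were on the lower side. By their means 12.3% of all tested identifiers were at least 2-fold lower and 16.9% higher. These 6 were chosen for such a difference, so the count is only a description. Of the deubiquitinases among the other ubiquitin genes described below, TNFAIP3 was higher and YOD1 lower. USP2, USP5 and USP54 were lower past limma and USP35 was higher, and the median of the 6 log2 differences was -1.16, a size that the 2-fold rule fixes. USP2 (ENSFCAG00000000980), which stabilizes cyclin D1 and clock proteins, measured 2.97, 3.49 and 2.48 FPKM in lesions and 21.3, 7.46 and 21.4 FPKM in healthy mucosa. Its level was nearly the same in the 3 lesions, and the spread lay in healthy tissue, where Jerome stood lowest. USP54 (ENSFCAG00000013719), a little-studied family member, measured 7.25, 5.47 and 3.94 FPKM in lesions against 20.3, 27.2 and 21.5 FPKM in healthy mucosa, a gap wider than the range within either tissue. USP5 (ENSFCAG00000004276), which recycles free ubiquitin chains and was the most abundant of these 6, measured 22.1, 33.6 and 25.5 FPKM in lesions against 53.2, 55.1 and 59.0 FPKM in healthy mucosa. The healthy values of USP5 spanned 0.15 on the log2 scale, and 6.0% of all tested identifiers had a smaller range there.

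OTUB2 and OTUD7A, of the ovarian tumor family of deubiquitinases, were lower in every lesion but not past limma. OTUB2 (ENSFCAG00000010228) measured 3.67, 2.12 and 2.39 FPKM in lesions and 5.66, 8.18 and 4.81 FPKM in healthy mucosa. OTUD7A (ENSFCAG00000011528, Cezanne-2) measured 0.271, 0.556 and 0.480 FPKM in lesions and 1.65, 1.65 and 3.76 FPKM in healthy mucosa. USP35 (ENSFCAG00000007458) moved the other way at a low level, with 3.00, 2.77 and 2.87 FPKM in lesions and 1.15, 1.40 and 1.08 FPKM in healthy mucosa. Its 3 lesions spanned 0.12 on the log2 scale, and 3.8% of identifiers had a smaller range there. In the RefSeq annotation ASB2 and OTUB2, which lay on opposite sides, are near neighbors with 1 protein-coding gene, CCDC197, between them.

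USP6NL (ENSFCAG00000015584) entered by its symbol but is a GTPase-activating protein of the endocytic pathway and no deubiquitinase. It measured 4.22, 2.48 and 2.06 FPKM in lesions and 7.48, 6.56 and 3.997 FPKM in healthy mucosa, so the lesion of Bart overlapped the healthy biopsy of Sadie. It was lower in the lesion of every cat and past limma only with the cat as a block.

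**Figure D3:**
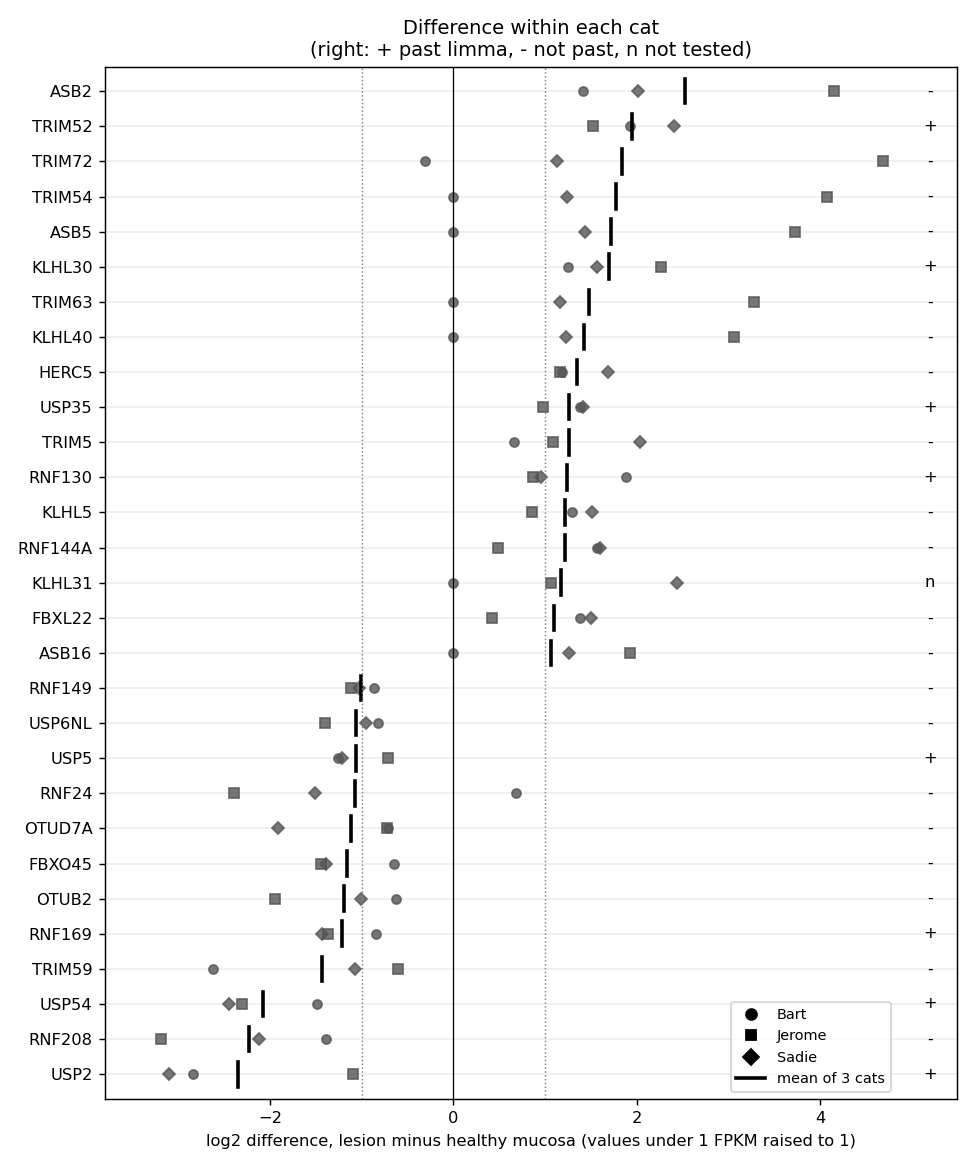
Log2 difference of lesion and healthy mucosa within each cat (horizontal axis, values under 1 FPKM raised to 1) for the 29 genes (vertical axis), with the mean of the 3 cats as a black bar and dotted lines at 2-fold. Signs at the right edge give the outcome of limma, in which 4 higher and 4 lower genes passed. Among the muscle ligases TRIM72 spreads from -0.31 in Bart to 4.69 in Jerome, and RNF24 is the only lower gene with a cat on the other side of 0.

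The remaining ligases were lower in lesions. RNF169 (ENSFCAG00000014635), which binds ubiquitylated chromatin at DNA breaks, measured 3.33, 3.15 and 2.38 FPKM in lesions against 5.99, 8.13 and 6.40 FPKM in healthy mucosa, and was the only one of these 6 past limma. RNF149 (ENSFCAG00000006926), a membrane-bound relative of RNF130, measured 17.3, 25.4 and 18.6 FPKM in lesions against 31.4, 55.2 and 38.1 FPKM in healthy mucosa. These relatives thus differed in direction, and in both the lesions did not overlap the healthy biopsies. FBXO45 (ENSFCAG00000001284), an F-box protein of neural development, measured 1.59, 1.41 and 0.507 FPKM in lesions and 2.48, 3.86 and 2.61 FPKM in healthy mucosa. RNF149 and FBXO45 were past limma with the cat as a block.

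RNF208 (ENSFCAG00000010265) had the most negative log2 difference among the ligases, -2.23, and also a wide spread, with 0.132, 1.52 and 3.21 FPKM in lesions and 2.62, 13.9 and 14.0 FPKM in healthy mucosa. Bart was lowest in both tissues, and the lesion of Sadie exceeded the healthy biopsy of Bart. RNF208 was past limma with the cat as a block. TRIM59 (ENSFCAG00000019137), a membrane-anchored TRIM protein, measured 1.52, 1.44 and 1.01 FPKM in lesions and 9.35, 2.19 and 2.13 FPKM in healthy mucosa. Its difference rested mainly on Bart, with a log2 difference of -2.62 against -0.61 in Jerome and -1.07 in Sadie. RNF24 (ENSFCAG00000007479), a RING protein of the Golgi, measured 13.9, 2.65 and 2.66 FPKM in lesions and 8.62, 14.0 and 7.56 FPKM in healthy mucosa. It was higher in the lesion than in the healthy mucosa of Bart (log2 difference 0.69) and lower in the other cats (-2.40 and -1.51).

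**Figure D4:**
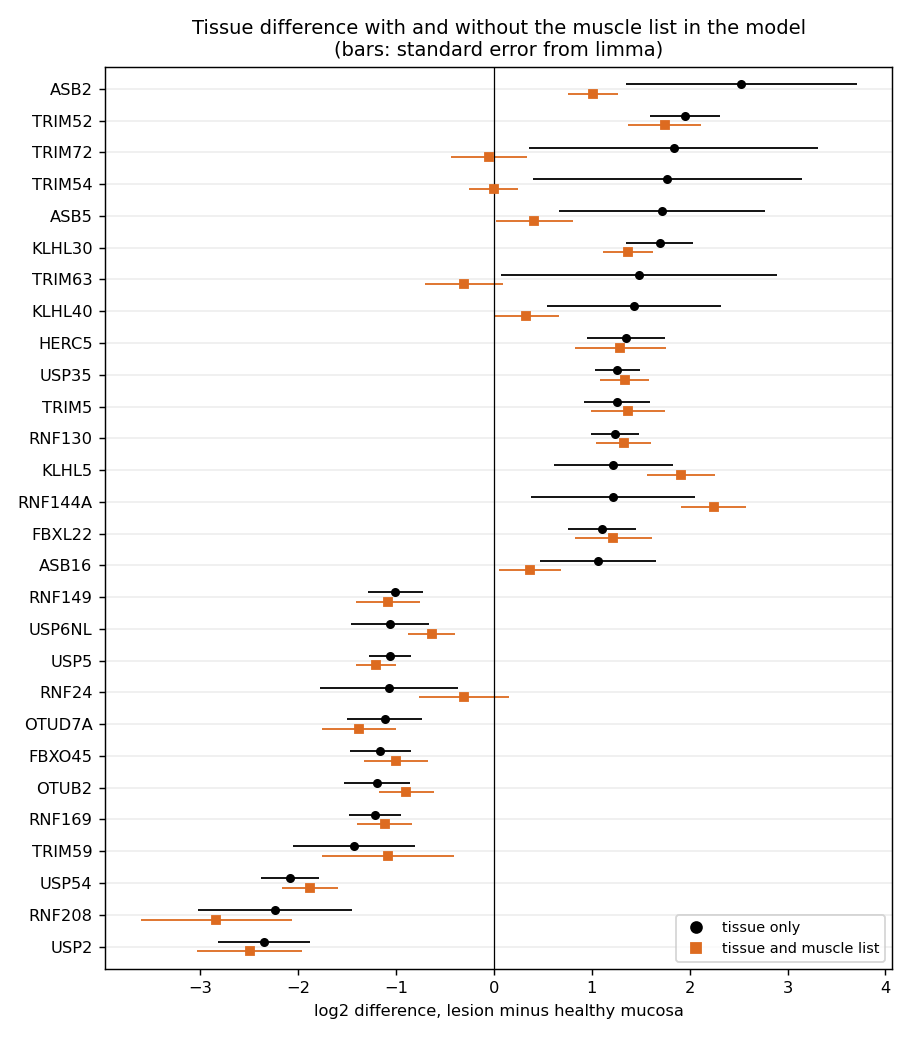
Log2 difference of lesion and healthy mucosa from limma (horizontal axis, bars give the standard error, n = 6 libraries) for the 28 tested genes (vertical axis), with tissue alone in the model (black circles) and with the mean of the muscle list as a covariate (orange squares). TRIM72, TRIM54 and TRIM63 move to 0 or below, KLHL5 and RNF144A move up, and for USP2, USP5, USP54, TRIM52, USP35 and RNF130 circle and square lie close together.

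With the muscle covariate, 7 of the 28 genes were higher and 4 lower past limma, against 9.06% and 10.5% of all identifiers. All 8 genes past limma with tissue alone were among them, and ASB2, KLHL5 and RNF144A were added. Without the 3 libraries that held muscle, 1 lesion (Bart) and 2 healthy biopsies (Bart and Jerome) were left, and limma, which then takes the spread from the healthy biopsies alone, called 0 of the 28 (10 at an unadjusted p under 0.05). The differences in that subset rest on the lesion of Bart alone. They were 1.71 for TRIM52, 1.24 for USP35, 1.74 for RNF130, -2.09 for USP2, -1.29 for USP5 and -1.70 for USP54. Other genes moved more, with 0.73 for HERC5 in place of 1.34 and 0.72 for TRIM5 in place of 1.26. RNF24 came to 0.34 in place of -1.07.

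Of 26 leukocyte markers 24 had a name, which required a 2-fold difference of the means. All 24 were higher in lesions by their means. Of these 11 were past limma, a count that cannot be set against the 5.31% of all identifiers. They summed to 2140, 2712 and 3243 FPKM in lesions and 326, 884 and 587 FPKM in healthy mucosa. Over the 6 libraries their mean correlated with TRIM52 at r = 0.94 and with USP2 at r = -0.94 (a description, in which the tissue difference that selected both takes part). USP35, HERC5 and KLHL30 reached 0.92 to 0.93 in the same way. Within the tissues the correlations were 0.61 for TRIM52 and -0.66 for USP2. Other genes had stronger ones there, among them RNF208 (0.91) and RNF149 (0.83), both lower in lesions, TRIM59 (-0.86) and KLHL5 (-0.81). The correlations are thus not particular to TRIM52 and USP2. Of 36 epithelial markers 4 had a name, 3 lower and 1 higher in lesions by their means, and 1 was lower past limma. They summed to 14.3, 2616 and 611 FPKM in lesions and 2162, 108 and 113 FPKM in healthy mucosa. KRT4, a keratin of mature oral epithelium, made up most of the 3 largest sums, with 8.995, 2534 and 569 FPKM in lesions and 2089 FPKM in the healthy library of Bart, and was listed at 0 in those of Jerome and Sadie. The other 3 were lower in the lesion of every cat, among them ELF3, an epithelial transcription factor, with 4.80, 80.2 and 40.0 FPKM in lesions and 59.8, 103 and 105 FPKM in healthy mucosa. The label of healthy mucosa could not be checked on the unnamed markers. The part of leukocytes and of epithelium in the genes above was not tested.

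Outside the families chosen by symbol, 7 of 114 other genes of the ubiquitin system had a name, 4 higher and 3 lower, with 1 past limma in each direction (5 of the 7 with the cat as a block). BIRC3, a ligase that restrains cell death in NF-kappa B signaling, was higher past limma, with 37.1, 49.6 and 49.0 FPKM in lesions against 10.96, 22.8 and 18.4 FPKM in healthy mucosa. TNFAIP3 (A20), the deubiquitinase that limits NF-kappa B signaling, measured 116, 35.8 and 16.3 FPKM in lesions and 32.1, 10.6 and 7.39 FPKM in healthy mucosa, highest in Bart in both tissues. DTX4, a ligase of the Notch pathway, measured 20.4, 7.33 and 9.97 FPKM against 5.02, 1.96 and 1.40 FPKM. PSMB10, a subunit of the immunoproteasome, measured 3.42, 15.2 and 17.1 FPKM against 2.17, 7.74 and 4.15 FPKM.

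On the lower side of these other genes, MID2, a TRIM family ligase of microtubules, was past limma with 3.34, 3.72 and 4.25 FPKM in lesions against 7.39, 10.7 and 13.5 FPKM in healthy mucosa. YOD1, an ovarian tumor deubiquitinase of the endoplasmic reticulum, measured 3.24, 1.40 and 0.927 FPKM against 9.09, 5.55 and 5.94 FPKM. SH3RF1, a scaffold of JNK signaling with a RING finger, measured 10.5, 3.90 and 2.91 FPKM against 14.0, 11.8 and 6.42 FPKM. As in USP6NL and RNF24, its highest lesion, that of Bart, lay above its lowest healthy biopsy, that of Sadie.

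Reads are not in the files, so the counting error of each value is unknown, and only the spread between the 3 cats limits these statements. In the RefSeq annotation 4 of the 29 genes overlap another protein-coding gene (RNF149 with CNOT11, ASB2 with FAM181A, RNF24 and OTUD7A with unnamed genes), and how the counting handled strand is not given.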

How the data were processed

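Poly(A) RNA of 6 biopsies was sequenced with a strand-marking kit. The authors deposited FPKM per Ensembl identifier and library. Tools named in the submitters' processing notes, with no version, are bcl2fastq, HISAT, Cufflinks and Cuffnorm. The sources used here give neither genome build and annotation nor scaling settings, and FPKM admits no count model. Read numbers are not in the files. FPKM summed to between 1382122 and 1903773 per library.

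Symbols came from the 1981 rows at hand of the study's list of changed genes (328 further rows were not used here). The floored lesion and healthy values of every row matched exactly 1 identifier at 5 significant digits, and none did with tissues exchanged. KLHL31 rests on 2 values above the floor. No row's fold or p-value was used. RefSeq (F.catus_Fca126_mat1.0) served for names and neighbors only, and matched none of the identifiers directly.

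For each identifier, log2 of FPKM (raised to at least 1) was tested two-sided with limma 3.58.1 (R 4.3.3, mean-variance trend) for tissue, after a filter (1 FPKM or more in 3 or more of 6 libraries), and adjusted by Benjamini-Hochberg over all 13327. The floor understates changes of weak genes. Each tissue has 3 cats. The limma step was checked on simulated data. Python 3.11.15, pandas 2.3.3 and matplotlib 3.10.9 did the rest.

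Both biopsies of a pair come from the same cat per the labels. Deviations from the tissue means correlated at 0.49 (Bart), 0.20 (Jerome) and 0.41 (Sadie) within cats, and from -0.44 to 0.27 between cats. A blocked fit (cat as block) is quoted where it changed a call.

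The genes and the marker lists (skeletal muscle, leukocyte, epithelium, endothelium, interferon response, other ubiquitin genes) were chosen with earlier results of these data known. All genes of the families found by symbol are named, and others only from these lists. Alternatives were the block, 0.1 or 1 FPKM added, no filter, quantile normalization, no trend, a muscle covariate, and leaving out each library, each cat or the 3 libraries with muscle.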

Additional observations from a re-analysis of the deposited data

How the results depend on the processing

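The calls of limma depended on which libraries were kept, for these genes and for all identifiers. The number of genes past limma was 4 higher and 4 lower. It was 6 and 8 with the cat as a block, and the block ended no call. With 0.1 FPKM added to every value it was 2 higher and 4 lower. Without a filter on low values, where 18541 identifiers share the adjustment, it was 1 and 1 (15 at an unadjusted p under 0.05). With the muscle list as covariate it was 7 and 4. Without the 3 libraries with muscle it was 0 and 0 (10 at an unadjusted p under 0.05, and 0 of 13327 identifiers past the test). Adding 1 FPKM, quantile normalization and dropping the trend left both counts at 4, with the same 8 genes past the test.

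Leaving out 1 library or 1 cat gave 0 to 6 higher and 0 to 4 lower. Without the pair of Bart 5 were higher and 4 lower, with 6 of the 8 calls kept. Without the healthy library of Bart alone 1 call was kept, and without that of Jerome also 1. Both counts were 0 when either library of Sadie, the pair of Jerome or that of Sadie was left out (8 to 18 at an unadjusted p under 0.05), and the first was 0 without the healthy library of Bart or either library of Jerome. Where both counts were 0, 0 to 9 of all 13327 identifiers were past the test, so the loss was general. Where only the first was 0, 898 (healthy library of Bart), 655 (lesion of Jerome) and 132 (healthy library of Jerome) were past it. No gene changed direction in these fits. The direction turned in 6 other cases. With the muscle covariate the log2 difference was -0.0473 for TRIM72, -0.0046 for TRIM54 and -0.30 for TRIM63. Without the 3 libraries with muscle it was -0.33 for TRIM72, -0.0442 for TRIM63 and 0.34 for RNF24. The same direction in every cat held for 10 higher and 11 lower genes, and for 13 and 11 with 0.1 FPKM added. The median range within a tissue moved from 0.94 to 1.09 in healthy mucosa and from 1.01 to 1.00 in lesions with 0.1 FPKM added. Depth is not in the files, so what it limits cannot be stated.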
